A study of Sus scrofa with 6 samples.

Results

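The genes described here take up, bind, activate, burn, desaturate and release long-chain fatty acids, and they were read in peripheral blood mononuclear cells (PBMCs), the lymphocytes and monocytes separated from blood. A list of 10 symbols was matched to the symbol column of the deposited table, and 8 of its 11564 genes matched: FABP3, FABP5, CD36, ACSL1, ACADM, SCD, PPARD and LIPE. No row carried the symbols CPT1A or ACSL4, so both were dropped as members, but a reference table of gene names ties their identifiers to rows without a symbol, and these 2 rows are given beside the members. The list was built around FABP3, whose difference between the labels was already known, so the members were chosen by values of this same comparison, and their differences between labels are a description and carry no test.

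Libraries came from 6 pigs at 6 months of age, 3 labelled WT and 3 labelled Leptin-overexpressing, and each library was 1 animal. The study's supplement gives the donor fetus of the transgenic animals as Yorkshire, and the paper names no breed for the controls. Its ethics statement speaks of miniature pigs. According to the study's methods, the transgenic animals were cloned by nuclear transfer from fetal fibroblasts that had been electroporated with a plasmid holding the pig leptin coding sequence and selected with neomycin, and the study's text puts the transgene under a pig leptin promoter. Nontransgenic pigs were the controls. Whether the 3 transgenic animals go back to 1 fibroblast clone, and whether the controls were cloned, is not given in the sources used here. LEP RNA went against the label in both libraries numbered replicate 1, with 50.0 FPKM in WT replicate 1 and a listed 0 in Leptin-overexpressing replicate 1. It was at 0 and 0.118 FPKM in WT replicates 2 and 3 and at 18.3 and 39.3 FPKM in Leptin-overexpressing replicates 2 and 3. No library was moved to another group, so every direction below is that of the labels. FPKM divides a gene's fragments by the length of its transcript and by the size of the library, so levels can be set side by side between genes. Depth is unknown, since the values are estimates down to 1.05e-234 FPKM and not multiples of whole reads.

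Long-chain fatty acids enter cells partly through CD36 and travel through the cytosol bound to fatty acid binding proteins. Acyl-CoA synthetases (ACSL1, ACSL4) attach them to coenzyme A, after which CPT1A passes them to the mitochondrion for oxidation or other enzymes build them into membrane and storage lipids. PPARD is a nuclear receptor that binds fatty acids and drives genes of their oxidation. In blood, CD36 is known as a surface protein of monocytes and platelets, and FABP3 is best known from heart and skeletal muscle.

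Defining genes of T cells, B cells and monocytes were present in every library. Of 10 T cell markers 9 were found, with a summed level of 681 to 1206 FPKM over the 6 libraries, of 7 B cell markers 6 were found with 408 to 755 FPKM, and of 10 monocyte markers 9 were found with 548 to 2618 FPKM. None of the 13 striated muscle markers had a named row, and of 8 adipocyte markers only LIPE, CFD and RETN did, while 2496 rows of the table have no name in either source.

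FABP3 (heart-type fatty acid binding protein, ENSSSCG00000003594) was listed at 0 in Leptin-overexpressing replicates 1 and 3 and was well expressed in the other 4 libraries. It was at 46.9 FPKM in WT replicate 1, 45.9 in WT replicate 2 and 49.1 in WT replicate 3, and at 44.7 FPKM in Leptin-overexpressing replicate 2. The labels did not overlap, but Leptin-overexpressing replicate 2 lay just under the lowest WT library. The mean was 47.3 ± 1.66 FPKM (SD, n = 3) for WT, and 14.9 ± 25.8 FPKM (SD, n = 3) for Leptin-overexpressing, a mean that no library of that label was near. On the log2(FPKM + 1) scale the difference, Leptin-overexpressing minus WT, was -3.75 (standard error 1.30), the lowest of the 10735 genes tested, and it is this value that chose the list. Its size depends on the constant added before the logarithm: it was -5.95 with 0.1 added and -8.16 with 0.01. Leaving out Leptin-overexpressing replicate 2 moved it to -5.59, and leaving out Leptin-overexpressing replicate 1 or 3 moved it to -2.84. The difference was also -2.84 (standard error 1.65) without both libraries numbered replicate 1.

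**Figure D1:**
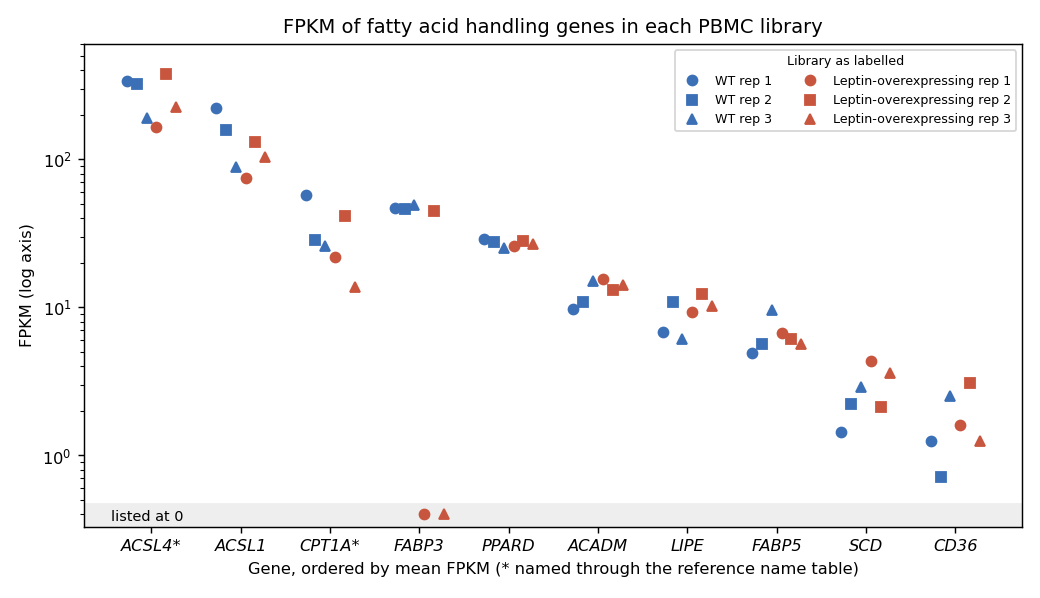
FPKM on a log axis for the 8 members and for ACSL4 and CPT1A (asterisks, named through the reference name table), ordered by mean, with 1 point per library (blue WT, red Leptin-overexpressing, symbol shape for the replicate number). Values listed at 0 are drawn in the grey band: both belong to FABP3, whose other 4 points lie between 44.7 and 49.1 FPKM.

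Where it was listed, FABP3 varied very little. Over the 4 libraries above 0 the mean was 46.7 ± 1.86 FPKM (SD, n = 4), a coefficient of variation of 3.99%. Among 445 rows with a mean of 40 to 55 FPKM in these same 4 libraries the median coefficient of variation was 14.9%, and 2.92% of them varied less than FABP3. The 4 libraries were taken because FABP3 was above 0 in them, and its values had already chosen the list. The 445 rows were not chosen in this way, so this share is a description and no test. No library held FABP3 at a level between 0 and 44.7 FPKM.

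A listed 0 beside a high value was common for very short loci and rare for loci the length of FABP3. Of 108 genes with a locus under 300 bp that reached 20 FPKM in some library, 69 (63.9%) were listed at 0 in another library. Of 3588 genes with longer loci, 5 (0.139%) were, and among the 374 of them with loci of 1000 to 3000 bp it was 3 (0.802%). FABP3, at chromosome 6 from 81714145 to 81715640 in the table's coordinates (1496 bp; the table names no genome build), was 1 of these 5, and LEP was the other one with a symbol. A row on chromosome Y, ENSSSCG00000012178, was also among them. It was at 103.7, 115.4 and 0.033 FPKM in WT and 55.9, 0.077 and 0 FPKM in Leptin-overexpressing, so each label held high and low libraries for it. The labels give no sex. In the study's supplement the fetus that gave the fibroblasts is marked as male, while this row was at 0.077 and 0 FPKM in Leptin-overexpressing replicates 2 and 3. The part of sex in the members' values was not tested. Only 60 rows were at 0 in at least 1 library and at 20 FPKM or more in all others, and 58 of them were under 300 bp. At 0 in the same 2 libraries as FABP3 and at 20 FPKM or more in the other 4 was 1 further row, ENSSSCG00000012032, a locus of 160 bp. The opposite pattern, at 20 FPKM or more in Leptin-overexpressing replicates 1 and 3 and at 0 elsewhere, was found in 4 rows, SNORA19, SNORA31, SNORA41 and a row named TMSB4X, with loci of 121 to 134 bp. What lies behind the 0 values of FABP3 was not tested, and the reference table of names holds FABP3 under another identifier than the deposited table does.

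Genes beside FABP3 on chromosome 6 were measured in all 6 libraries. SERINC2, the nearest row on one side (33970 bp away, named through the reference table), was at 5.38, 4.62 and 2.50 FPKM in WT and 3.05, 4.62 and 3.38 FPKM in Leptin-overexpressing. ENSSSCG00000003595, the nearest on the other side (13281 bp away), was at 12.6, 5.44 and 5.92 FPKM in WT and 4.07, 10.5 and 5.31 FPKM in Leptin-overexpressing. Both neighbours overlapped between labels, and none of the 8 rows within 200000 bp of FABP3 was listed at 0 in any library.

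**Figure D2:**
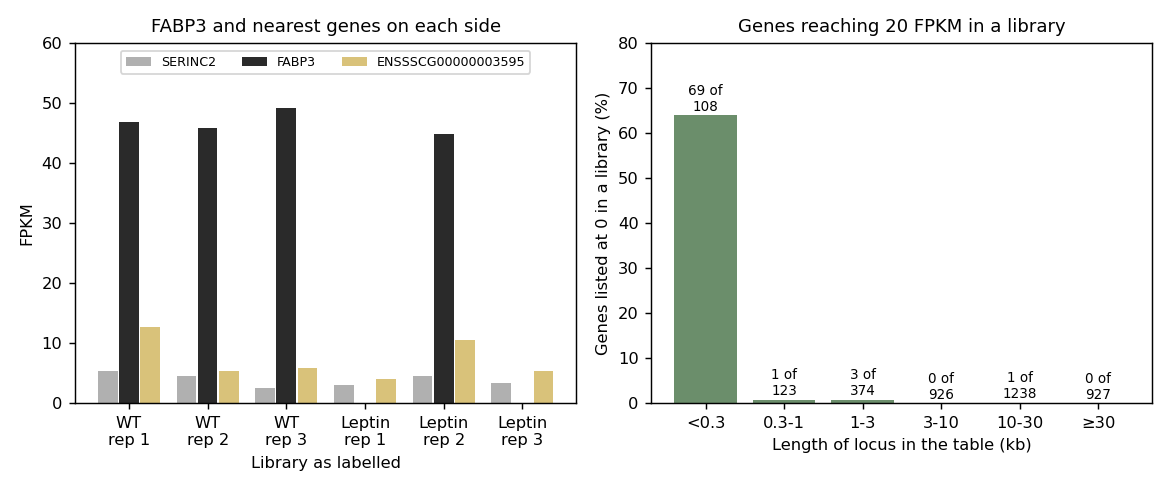
Left, FPKM of FABP3 (black) and of the nearest row on each side in each library as labelled; only FABP3 is at 0 in Leptin-overexpressing replicates 1 and 3. Right, among genes reaching 20 FPKM in some library, the percent listed at 0 in another, by length of the locus: 63.9% under 0.3 kb, and below 1% in every longer class.

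FABP5 (ENSSSCG00000006153, chromosome 4 from 60306136 to 60311183), the epidermal-type member of the same family, was the other binding protein among the 8 members. It was at 4.92, 5.65 and 9.55 FPKM in WT replicates 1 to 3 and at 6.73, 6.16 and 5.63 FPKM in Leptin-overexpressing replicates 1 to 3. WT replicate 3 was the highest library and WT replicate 1 the lowest, so the Leptin-overexpressing values lay inside the WT range. The log2 difference was -0.059 (standard error 0.23), and with 1 library left out it ran from -0.23 (without WT replicate 1) to 0.19 (without WT replicate 3). Without both libraries numbered replicate 1 it was -0.28.

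CD36, the fatty acid translocase (ENSSSCG00000015405, chromosome 9 from 110040076 to 110106938), was the lowest of the 8. It was at 1.24, 0.714 and 2.51 FPKM in WT and at 1.61, 3.09 and 1.25 FPKM in Leptin-overexpressing, so the labels overlapped widely. Its log2 difference was 0.28 (standard error 0.31), and with 1 library left out it ran from 0.024 (without Leptin-overexpressing replicate 2, its highest library) to 0.56 (without WT replicate 3), with 0.040 without WT replicate 2 and 0.46 without Leptin-overexpressing replicate 3. The difference was 0.31 without both libraries numbered replicate 1. Platelet markers (6 of 7 found, none listed at 0) summed to between 225 and 542 FPKM in WT and to between 181 and 497 FPKM in Leptin-overexpressing. CD36 was low in WT replicate 2 and Leptin-overexpressing replicate 3, the libraries with the lowest platelet sums, but also in WT replicate 1, which had the highest; the part of platelets in its level was not tested. In bulk RNA fewer cells of a type and less RNA per cell cannot be told apart.

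ACSL1 (ENSSSCG00000015784, chromosome 15 from 52526605 to 52592779), an acyl-CoA synthetase of long-chain fatty acids that is abundant in myeloid cells, had the highest level of the 8, above 95.0% of all rows by mean. It was at 221.1, 157.5 and 88.2 FPKM in WT and at 74.8, 131.2 and 102.9 FPKM in Leptin-overexpressing. WT replicate 1 was nearly 3 times Leptin-overexpressing replicate 1 (ratio 2.96), yet WT replicate 3 lay below 2 libraries of the other label. The mean was 155.6 ± 66.5 FPKM (SD, n = 3) for WT and 102.9 ± 28.2 FPKM (SD, n = 3) for Leptin-overexpressing, and the log2 difference was -0.53 (standard error 0.34). With 1 library left out it ran from -0.89 (without WT replicate 3) to -0.23 (without WT replicate 1), with -0.32 without Leptin-overexpressing replicate 1. Without both libraries numbered replicate 1, whose LEP values go against their labels, it was -0.021. Monocyte markers summed to 2618, 844 and 548 FPKM in WT and to 712, 1510 and 912 FPKM in Leptin-overexpressing, with no marker at 0. WT replicate 1 was highest for this sum as for ACSL1, and the WT spread was wide in both. S100A8 and S100A9 made up most of the sum in WT replicate 1, at 698.9 and 1031.4 FPKM. Among the other monocyte markers only CD14 was highest in WT replicate 1, and LYZ was highest in Leptin-overexpressing replicate 2 (441.6 against 417.6 FPKM). The part of monocytes in the ACSL1 level was not tested.

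ACSL4, named through the reference table (ENSSSCG00000012583, chromosome X from 105375894 to 105452669), is the synthetase that prefers arachidonic acid. It was at 337.5, 322.0 and 190.1 FPKM in WT and at 165.5, 376.4 and 223.6 FPKM in Leptin-overexpressing, higher than any of the 8. WT replicates 1 and 2 and Leptin-overexpressing replicate 2 were the 3 highest libraries for ACSL4 as they were for ACSL1, and the log2 difference of -0.19 (standard error 0.33) changed sign without Leptin-overexpressing replicate 1 (0.080) and without both libraries numbered replicate 1 (0.23).

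ACADM, the medium-chain acyl-CoA dehydrogenase that begins a round of mitochondrial oxidation (ENSSSCG00000003776, chromosome 6 from 127513772 to 127548453), ran opposite to the synthetases. It was at 9.72, 10.8 and 15.0 FPKM in WT and at 15.5, 13.0 and 14.1 FPKM in Leptin-overexpressing. WT replicates 1 and 2 and Leptin-overexpressing replicate 2, the 3 high libraries for ACSL1, were the 3 low ones for ACADM. Over the 6 libraries the Pearson r of log2(FPKM + 1) between ACADM and ACSL1 was -0.98, the lowest of 28 pairs of members, while PPARD and ACSL1 had the highest, 0.91; the points share libraries and cell composition, and r is given only as a description. The log2 difference of ACADM between labels was 0.26 (standard error 0.18), from 0.14 (without WT replicate 1) to 0.43 (without WT replicate 3) with 1 library left out, and 0.082 without both libraries numbered replicate 1.

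CPT1A, the outer-membrane carnitine transferase that gates mitochondrial oxidation (ENSSSCG00000012880, chromosome 2 from 2815219 to 2874163, named through the reference table), was at 57.4, 28.5 and 25.9 FPKM in WT and at 22.0, 41.2 and 13.8 FPKM in Leptin-overexpressing. Its highest library was WT replicate 1 and its lowest Leptin-overexpressing replicate 3, a ratio of 4.18, with overlap between labels. The log2 difference was -0.56 (standard error 0.42), and with 1 library left out it ran from -0.96 (without Leptin-overexpressing replicate 2) to -0.20 (without Leptin-overexpressing replicate 3), with -0.21 without WT replicate 1. Without both libraries numbered replicate 1 it was -0.17.

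SCD, stearoyl-CoA desaturase (ENSSSCG00000010554, chromosome 14 from 120964205 to 120980914), which makes monounsaturated fatty acids, was the only synthesis enzyme among the members. It was at 1.45, 2.23 and 2.88 FPKM in WT and at 4.34, 2.14 and 3.61 FPKM in Leptin-overexpressing. The 2 highest libraries, Leptin-overexpressing replicates 1 and 3, were those in which FABP3 was listed at 0, while Leptin-overexpressing replicate 2 lay within the WT range. The log2 difference of 0.44 (standard error 0.25) ranged from 0.26 to 0.66 with 1 library left out and was 0.10 without both libraries numbered replicate 1.

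PPARD (ENSSSCG00000001539, chromosome 7 from 36141605 to 36215260) was the steadiest member. It was at 28.9, 27.8 and 25.0 FPKM in WT and at 26.0, 27.9 and 26.7 FPKM in Leptin-overexpressing, so its highest library was 1.15 times its lowest. The log2 difference was -0.017 (standard error 0.14), with a sign that turned without WT replicate 1 (0.025), without Leptin-overexpressing replicate 1 (0.0058) and without both (0.048).

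LIPE, hormone-sensitive lipase (ENSSSCG00000003018, chromosome 6 from 45444858 to 45454620), which frees fatty acids from stored lipid, was at 6.84, 10.8 and 6.08 FPKM in WT and at 9.35, 12.4 and 10.2 FPKM in Leptin-overexpressing. WT replicates 1 and 3 lay below all other libraries, and WT replicate 2 lay above 2 of the 3 Leptin-overexpressing libraries. Its log2 difference was 0.41 (standard error 0.22), and with 1 library left out it ran from 0.27 (without WT replicate 3) to 0.63 (without WT replicate 2, the library that made the labels overlap). The difference was 0.42 without both libraries numbered replicate 1.

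**Figure D3:**
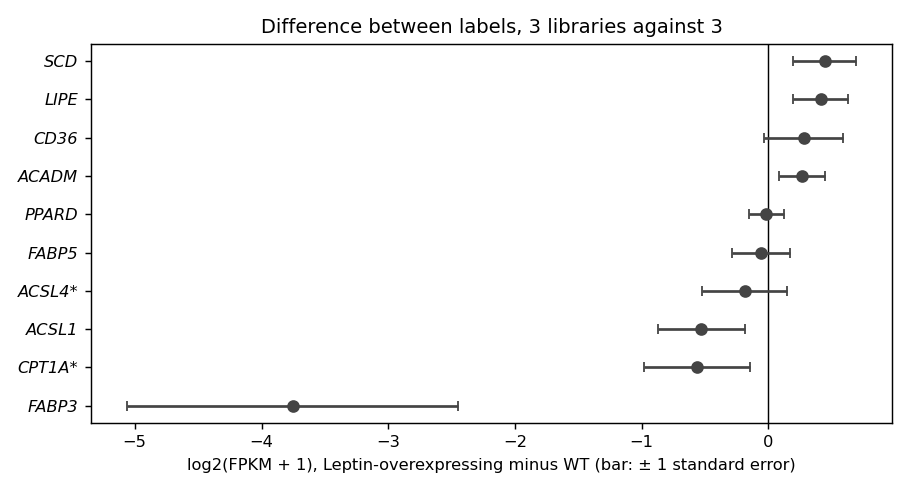
Difference of mean log2(FPKM + 1), Leptin-overexpressing minus WT, with 1 standard error from limma on each side, for the 8 members and, with asterisks, ACSL4 and CPT1A. FABP3 stands at -3.75 with the widest error, and the other 9 lie between -0.56 and 0.44.

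By label, 4 of the 8 members were higher and 4 lower in Leptin-overexpressing (63.1% and 36.9% of all genes), and the median log2 difference was 0.12 against 0.059 over all genes tested. With p adjusted over all genes (limma, Benjamini-Hochberg), 0 of the 8 were under 0.05, where the share over all genes was 0.00932%. FABP3 was the 1 member with an unadjusted p under 0.05 (3.18% of all genes) and the 1 member whose labels did not overlap (7.63% of all genes, 2.63% on the lower side). Since this same comparison chose the list, nothing is read from these counts. For FABP3 the standard error was 1.84 without variance moderation, against 1.30 with it. Apart from FABP3, no member differed 2-fold between labels, and their log2 differences were at most 0.53 in size.

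In order of mean level the members ran from ACSL1 through FABP3, PPARD, ACADM, LIPE, FABP5 and SCD to CD36. The ranges over the 6 libraries of ACSL1 and FABP3, of PPARD and ACADM, and of FABP5 and SCD did not overlap. Each of the other neighbouring pairs did, that of FABP3 and PPARD because of the listed 0 values.

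**Figure D4:**
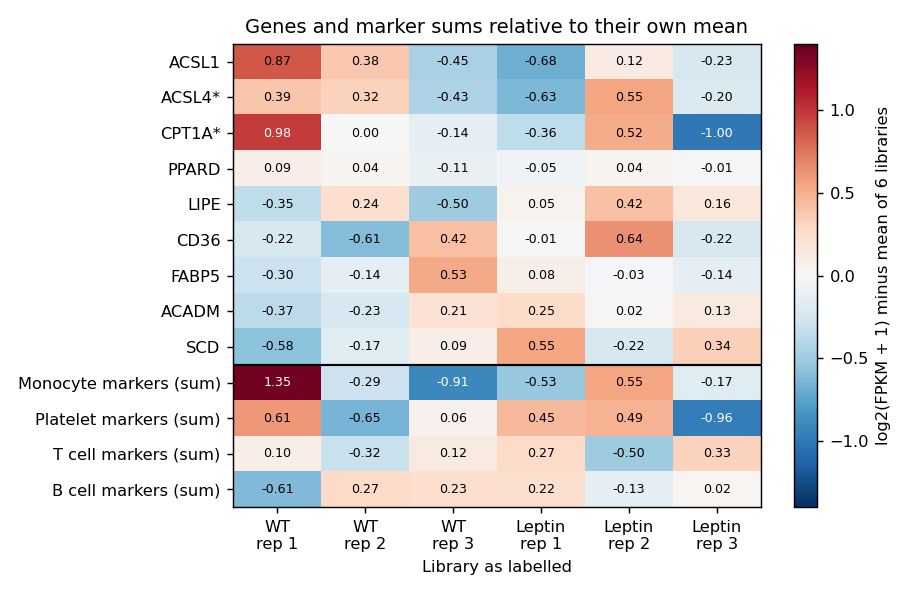
log2(FPKM + 1) of each gene except FABP3 minus its own mean over the 6 libraries, with the summed markers of 4 cell types under the line (asterisks, genes named through the reference table). In WT replicate 1 ACSL1 and CPT1A stand 0.87 and 0.98 above their means and the monocyte markers 1.35, while SCD and ACADM stand below theirs, at -0.58 and -0.37. Most of the monocyte sum in WT replicate 1 is S100A8 and S100A9 (698.9 and 1031.4 FPKM).

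The genes whose pattern over the 6 libraries was most like each member's were listed by Pearson r among genes tested that have a name. For FABP3 they were a row of the small nuclear RNA U4 (r = 0.96), also listed at 0 in Leptin-overexpressing replicates 1 and 3, then PXK (0.94) and DHX8 (0.93), which stayed at 33.3 to 40.6 and at 17.8 to 20.1 FPKM. ACSL1 was most like LIMK2 (0.99), ALOX5 (0.98) and ALOX5AP (0.98), of which ALOX5 and its partner protein turn arachidonic acid into leukotrienes. ACADM was most like PRKCDBP, ABCD3 and PMF1 (each 0.998), and ABCD3 is a fatty acid transporter of the peroxisome. SCD was most like MRPS26, CASD1 and MRPL43, CD36 like ATF5, P2RY6 and FAM189A2, and LIPE like CXCL16, TMEM167A and SLN. PPARD was most like SERINC2, SPTLC2 and ZDHHC5, and FABP5 like FYCO1, TEX10 and STXBP3. CPT1A was most like GATSL2, DNM2 and ANKRD28, and among the genes most like ACSL4 were PLEK and ADGRE5, the latter a surface protein of leukocytes. With 6 points and 10735 genes high values of r arise in number, so these are names beside a pattern only.

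To place the members, 151 further genes of fatty acid handling, listed by function without the members, were sought in the table. Rows were found for 93, 13 of them through the reference table, and 90 could be tested. In Leptin-overexpressing 72 had the higher mean and 18 the lower, where 63.1% of all genes were higher and 36.9% lower, and the median log2 difference was 0.12. With an adjusted p under 0.05, 0 were called in limma (0.00932% of all genes), and the lowest adjusted p was 0.993. At an unadjusted p under 0.05, 2 were higher (1.98% of all genes are) and 0 lower (1.19%), and 2 did not overlap between labels, both higher (5.0% of all genes). With median-of-ratios scaling, which equalises the libraries, 60 of 89 were higher against 50.5% of all genes. Without WT replicate 1 there were 54 of 89 (60.7%, against 51.6% of all genes) with a median of 0.036, and without both libraries numbered replicate 1 there were 44 of 88 (against 43.2% of all genes) with a median of -0.00087.

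The 2 genes at an unadjusted p under 0.05 were G0S2 and CPT1C. G0S2, an inhibitor of the triglyceride lipase PNPLA2, was at 4.31 FPKM in WT replicate 2 and 5.15 in WT replicate 3, against 13.7, 17.4 and 11.2 FPKM in Leptin-overexpressing, a log2 difference of 0.92 (standard error 0.37, adjusted p = 0.993, limma). WT replicate 1 stood among the Leptin-overexpressing libraries, so the labels overlapped, and with 1 library left out the difference ran from 0.63 (without WT replicate 2) to 1.38 (without WT replicate 1). The difference was 1.39 without both libraries numbered replicate 1. CPT1C, the brain-type relative of CPT1A, had 15.8 ± 2.29 FPKM (SD, n = 3) and 25.7 ± 8.11 FPKM (SD, n = 3), a log2 difference of 0.63 (standard error 0.24, adjusted p = 0.993, limma) with overlap between labels. With 1 library left out it ran from 0.41 (without Leptin-overexpressing replicate 2) to 0.86 (without Leptin-overexpressing replicate 1), and it was 0.82 without both libraries numbered replicate 1.

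The counts of higher genes in each group of this list are to be read against the 63.1% of all genes that were higher. Mitochondrial oxidation, the group ACADM belongs to, had 21 of 23 genes higher and a median log2 difference of 0.17. Its most abundant genes were ECHS1, which hydrates enoyl-CoA (63.5 to 84.8 FPKM in WT, 77.4 to 89.6 in Leptin-overexpressing), ETFB, which carries electrons from the dehydrogenases (48.9 ± 10.9 and 58.4 ± 3.88 FPKM, SD, n = 3 each), and HADH (40.2 ± 4.52 and 44.0 ± 1.45 FPKM). Relative to each gene's own mean the median of the 23 was -0.35 in WT replicate 1, -0.060 in WT replicate 2 and 0.14 in WT replicate 3, against 0.17, 0.028 and 0.077 in Leptin-overexpressing, so WT replicate 1 stood lowest and WT replicate 3 above 2 libraries of the other label. Over all genes tested WT replicate 1 was likewise lowest and Leptin-overexpressing replicate 1 highest, with medians of -0.13, -0.030 and 0.079 in WT and 0.11, -0.051 and 0.036 in Leptin-overexpressing. With median-of-ratios scaling, 21 of 23 were higher (91.3%, against 50.5% of all genes) with a median of 0.10. Without WT replicate 1, 18 of 23 were higher (78.3%, against 51.6% of all genes) with a median of 0.071, and without both libraries numbered replicate 1 there were 13 of 23 (56.5%, against 43.2%) with a median of 0.019. ACADM showed the same order at its extremes, with WT replicate 1 lowest and Leptin-overexpressing replicate 1 highest.

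Peroxisomal oxidation had 8 of 9 genes higher, among them ACAA1 (44.1 ± 10.4 FPKM in WT, 48.1 ± 6.25 in Leptin-overexpressing, SD, n = 3 each), a thiolase of the last step. Activation genes other than the members had 7 of 10 higher. ACSF2, a medium-chain synthetase, was at 46.4 to 70.3 FPKM in WT and 54.7 to 70.2 in Leptin-overexpressing, ACSS1 at 32.3 ± 3.63 and 30.5 ± 2.14 FPKM (SD, n = 3 each), and the thioesterase ACOT13 at 22.7 ± 6.22 and 22.1 ± 3.97 FPKM. The 2 genes of this group without overlap, ACSS2 and ACSF3, had log2 differences of 0.15 and 0.21 (5.0% of all genes did not overlap on the higher side), and for ACSS2 the highest WT library (9.49 FPKM) and the lowest Leptin-overexpressing library (9.51 FPKM) nearly met. Uptake and binding had 5 of 7 higher, with DBI, the acyl-CoA binding protein, at 23.6 ± 6.32 FPKM in WT and 29.9 ± 1.42 in Leptin-overexpressing (SD, n = 3 each). SLC27A4, a fatty acid transport protein, was at 8.55 ± 1.62 and 10.3 ± 1.40 FPKM.

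Synthesis and desaturation, the group SCD belongs to, had 11 of 15 higher with a median log2 difference of 0.032, and ACLY, which supplies acetyl-CoA for synthesis, was at 21.4 ± 3.15 and 21.3 ± 3.06 FPKM (SD, n = 3 each). TECR and HACD4, enzymes of fatty acid elongation, were at 30.6 ± 4.81 and 32.9 ± 1.63 FPKM and at 16.5 ± 3.79 and 18.9 ± 1.81 FPKM. Storage and lipolysis, the group of LIPE, had 11 of 14 higher, with PNPLA2 at 36.4 ± 3.54 FPKM in WT and 39.4 ± 3.33 in Leptin-overexpressing (SD, n = 3 each). Of the acyltransferases AGPAT1 and AGPAT2, AGPAT2 was at 81.4 FPKM in WT replicate 1 and at 23.5 to 47.2 FPKM in the other 5 libraries, and AGPAT1 was at 36.1 ± 1.44 and 39.2 ± 3.43 FPKM. Regulators, the group of PPARD, had 9 of 12 higher with a median of 0.044. UCP2, a mitochondrial carrier, had the highest level of the whole list, 508.0 ± 80.8 FPKM in WT and 613.1 ± 157.0 in Leptin-overexpressing (SD, n = 3 each), and NR1H2, a sterol-sensing nuclear receptor, was at 81.3 ± 3.14 and 83.7 ± 2.77 FPKM. SCAP, which escorts the SREBP regulators of lipid synthesis, was at 34.2 FPKM in WT replicate 1 and at 41.1 to 64.1 FPKM in the other 5 libraries.

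**Figure D5:**
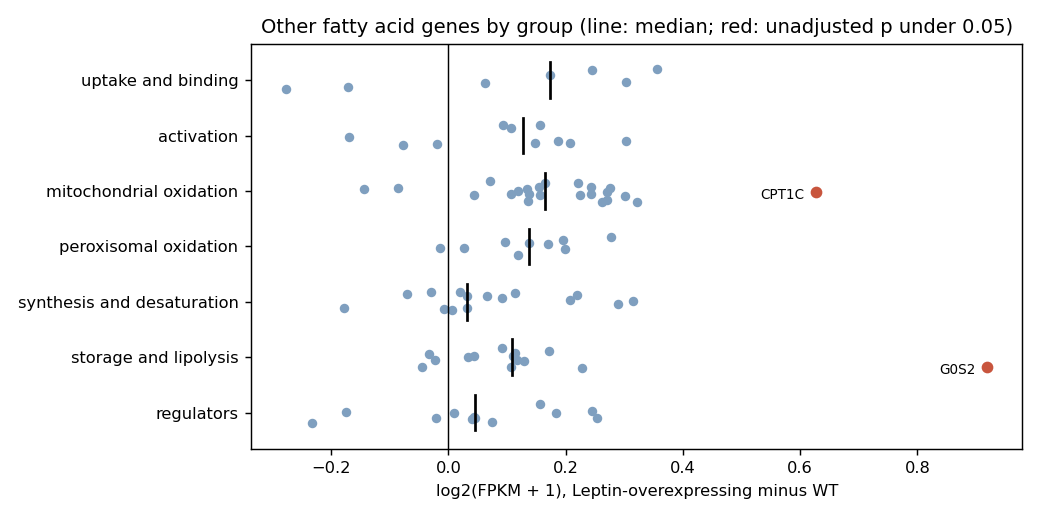
Difference of mean log2(FPKM + 1), Leptin-overexpressing minus WT, for the 90 further fatty acid genes tested, by group, with 1 point per gene and a line at the group's median. All 7 medians lie above 0, from 0.032 to 0.17, and the 2 red points, CPT1C and G0S2, have an unadjusted p under 0.05; without both libraries numbered replicate 1, 44 of 88 genes are higher (43.2% of all genes) and the median over the list is -0.00087.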

How the data were processed

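PBMC RNA of 6 pigs was sequenced, and the authors deposited 1 FPKM value per gene and library. The paper's methods name Bowtie, the Ensembl version 75 transcriptome and RSEM, whereas the submitters' processing notes name FastQC, STAR 2.5, Cuffnorm and DESeq 1.22.1, so the tools that made the FPKM values are not settled. The table also holds fold changes and p-values of the authors' own comparison, which were not used. Columns were matched to samples by animal code, with 0 columns left over.

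Labelled genotypes were compared in limma 3.58.1 (R 4.3.3), with an ordinary linear model per gene and moderated variances but neither a mean trend nor robust weights. Input was log2(FPKM + 1), restricted to 10735 genes reaching 1 FPKM in 3 or more libraries. All tests were two-sided, and p was adjusted over those genes by the Benjamini-Hochberg method. All 8 members passed this filter, FABP3 through its 4 libraries above 0. Fits were tested on simulated data. Descriptions were made in Python 3.11.15. Of 4000 rows without a symbol, 1504 were named by gene identifier from a reference table. Member and list choices were made with earlier results of these data known. Pathway genes are named where the unadjusted p was under 0.05, where the labels did not overlap with a log2 difference of at least 0.5, or where they were among the 3 highest of their group, and some genes that these rules name are not reported here. ACSS2 and ACSF3 were named after their values were seen. Pearson r named the 3 genes most like each member. Each library is a separate animal by its code, and the labels give neither sex nor a processing batch, so p-values measure the spread between these libraries from any source. Depth is unknown, and no interval from counting is given. Marker lists for NK cells (sums of 205 to 515 FPKM), neutrophils (47.4 to 236) and erythroid cells (21.8 to 217) were also summed. KLRD1, an NK marker named through the reference table, was listed at 0 in WT replicates 2 and 3 and Leptin-overexpressing replicates 1 and 2. No sequence of the members was used here. The alternatives were other pseudocounts, filters and scaling, no moderation, the replicate number as a block and each library left out.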

Additional observations from a re-analysis of the deposited data

How the results depend on the processing

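Over all genes 1 was called higher and 0 lower (2-fold and adjusted p, limma), while 213 were higher and 128 lower at an unadjusted p under 0.05. The called count on the higher side came to 0 when each library had to reach 1 FPKM, 0 without variance moderation, 0 without both libraries numbered replicate 1 (chosen after seeing the data) and 2 with the replicate number as a block. With 1 library left out it ran from 0 to 2 higher and from 0 to 2 lower. Unadjusted counts moved to 104 higher without both libraries numbered replicate 1 and to 249 lower with median-of-ratios scaling, and with 1 library left out they ran from 135 (without Leptin-overexpressing replicate 1) to 608 (without WT replicate 3) higher and from 95 (without Leptin-overexpressing replicate 2) to 238 (without WT replicate 3) lower. The 2 higher pathway genes became 1 with a pseudocount of 0.1, 1 with 0.01, 0 with median-of-ratios scaling and 0 without moderation, and with 1 library left out there were 0 (without Leptin-overexpressing replicate 2) to 5 (without WT replicate 3). Replicate numbers belong to different animals, and same-numbered libraries did not deviate together (correlations -0.28, 0.13 and -0.0073), so the block pairs nothing by design. Among the pathway genes followed singly, log2 differences that turned sign were, without both libraries numbered replicate 1, ACSF2 (-0.15), TECR (-0.043), AGPAT2 (0.54) and SCAP (-0.37), beside PPARD (0.048) and ACSL4 (0.23), and with median-of-ratios scaling SCAP (-0.055) and NR1H2 (-0.025). With 1 library left out they ran from -0.079 to 0.22 for ACSF2, -0.19 to 0.18 for ACOT13, -0.086 to 0.11 for ACLY, -0.0090 to 0.21 for TECR, -0.37 to 0.51 for AGPAT2 and -0.26 to 0.18 for SCAP. The cause of these moves was not tested. FABP3 could not be fitted where 1 FPKM was required in all libraries, and depth limits are unknown since the values hold no counts.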

Other observations

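Annotation columns of the table tie 20 rows to the KEGG pathway of fatty acid degradation, ACADM and ACSL1 among them, and the other 18 were all tested. Every one of these 18 had a higher mean in Leptin-overexpressing, where 63.1% of all genes did, with a median log2 difference of 0.20. With median-of-ratios scaling there were 16 of 18 (50.5% of all genes), without WT replicate 1 there were 15 with a median of 0.077 (51.6% of all genes), and without both libraries numbered replicate 1 there were 12 with a median of 0.037 (43.2% of all genes). No gene of the 18 had an adjusted p under 0.05 (limma), and 2 had an unadjusted p under 0.05 on the higher side, CPT1C and ALDH9A1 (1.98% of all genes). ALDH9A1, an aldehyde dehydrogenase named after its values were seen, was at 16.8, 18.6 and 18.3 FPKM in WT and at 22.9, 22.4 and 23.1 FPKM in Leptin-overexpressing, so its labels did not overlap, as for 5.0% of all genes on the higher side (log2 difference 0.34, standard error 0.13, adjusted p = 0.993, limma).

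Of 15 tested genes that the table ties to PPAR signalling besides the members, 12 were higher and 3 lower, where 63.1% of all genes were higher. APOC3, an apolipoprotein of triglyceride-rich particles that was named after its values were seen, was at 3.12, 4.70 and 2.79 FPKM in WT and at 2.27, 0.924 and 1.64 FPKM in Leptin-overexpressing. Its labels did not overlap, as for 2.63% of all genes on the lower side (log2 difference -0.81, standard error 0.24, adjusted p = 0.993, limma).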
